A study of Mus musculus with 10 samples.

Results

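Phosphatidylcholine, the main phospholipid of cell membranes and of lung surfactant, is built from choline, cytidine nucleotides and a glycerol backbone, and the transcripts of 10 enzymes of this synthesis were measured in mouse lung tumours of KP (Control) and KPG1 (Glut1-KO) mice. The enzymes were chosen by symbol, with earlier results of these data known: the choline kinases Chka and Chkb, the cytidylyl transferases Pcyt1a, Pcyt1b and Pcyt2, the phosphotransferases Chpt1 and Cept1, the methyltransferase Pemt, and Gpam and Lpin1, which act on the glycerol backbone. They make up 10 of the 39017 genes of the count table, each symbol occurred in 1 row, and 10 of 10 passed the filter on low counts. Tumours were started in C57BL/6 mice with an adenovirus that expresses Cre recombinase from the promoter of CC10, a marker of club cells, given into the trachea, and were taken 20 weeks and 1 day later. Both groups carried, among other alleles, p53 Fl/Fl, so that Cre removed p53 in the infected cells. KP (Control) libraries were labelled heterozygous fl/wt for Glut1, although the series text speaks of wild-type Glut1, and KPG1 (Glut1-KO) libraries came from mice with Glut1 Fl/Fl, so the RNA of uninfected cells kept an intact Slc2a1. After dissociation, cells positive for CD45, a leukocyte surface protein, were depleted with magnetic beads, and polyadenylated RNA was sequenced from what remained. Each group held 5 libraries, with 35250991 to 49760462 counts a library.

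In the CDP-choline route, choline kinase adds a phosphate to choline, a cytidylyl transferase makes CDP-choline in the step that usually sets the rate of the route, and a phosphotransferase moves phosphocholine onto diacylglycerol. A parallel route through Pcyt2 makes phosphatidylethanolamine, which Pemt can methylate to phosphatidylcholine, chiefly in liver. Gpam puts the first acyl chain on glycerol 3-phosphate at the mitochondrial outer membrane, and the lipin Lpin1 removes the phosphate of phosphatidic acid to give diacylglycerol. Alveolar type 2 cells, which make surfactant, are known for a high flux through the CDP-choline route.

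Slc2a1, the gene of Glut1, was looked at first as a check of the labels. Its level in CPM, the count scaled by TMM to a common library size, was 118, 86.7, 92.6, 103 and 73.2 in Control replicates 1 to 5, and 60.3, 42.5, 34.6, 92.4 and 103 in the libraries labelled Glut1-KO. The first 3 of the latter, labelled female, lay below every control, whereas replicates 4 and 5, labelled male, lay within the range of the controls. Over all libraries the fitted log2 fold change was -0.62 (SE 0.29, limma adjusted p = 0.658), and it was -1.07 (SE 0.21) for the female libraries alone against the controls and 0.06 for the male ones. All 5 controls were labelled male, so in the female libraries sex and genotype cannot be told apart. The labels do not say that libraries came from separate animals (5 controls shared 2 numbers in their deposited names, and Glut1-KO replicates 4 and 5 shared 1), so p-values measure the spread between these libraries only. The libraries are therefore called by their labels, and for each of the 10 enzymes the log2 fold changes of the female and of the male libraries against the controls are both given. The difference between them was tested for none of the 10.

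Over the 15922 genes tested, limma called 0 at an adjusted p below 0.05 (0%), 1223 had an unadjusted p below 0.05 (7.68%; 583 higher, 3.66%, and 640 lower, 4.02%), edgeR called 0 (1409 unadjusted) and DESeq2 215 (1.35%). The groups did not overlap at 295 genes (1.85%), of which 168 were lower under the Glut1-KO label (1.06%). Among the 10 enzymes, 3 fitted values were above 0 and 7 below, with a median log2 fold change of -0.14 against -0.005 over all genes. By limma and by DESeq2, 0 of the 10 passed the adjusted threshold, 2 had an unadjusted limma p below 0.05, both lower (Chkb and Pcyt1b), and the groups did not overlap at 0 of them. Beside the enzymes, summed marker levels were 27100 to 74800 CPM in controls and 50300 to 68900 in libraries labelled Glut1-KO for alveolar type 2 cells (10 markers), and 986 to 11400 and 1970 to 7910 for leukocytes (12 markers, with Cd3e and Marco at 0 in a library; the list holds Lyz2, which alveolar type 2 cells also express). All 10 genes of a dissociation stress list had fitted values below 0 (5720 to 7660 CPM summed in controls, 5390 to 6200 in the female and 3690 and 4160 in the male libraries of the others, exact permutation p = 0.0317 over both groups). So had 8 of 8 ciliated markers (11.3 to 263 and 14.7 to 56.7 CPM, with Sntn at 0 in a library, exact permutation p = 0.206), while 8 of 8 endothelial markers were above 0 (104 to 385 and 159 to 525 CPM, exact permutation p = 0.238). Of 7 club markers 5 were below 0 and 2 above (1990 to 10800 and 1310 to 7280 CPM, with Upk3a at 0 in a library, exact permutation p = 0.214). Of the alveolar type 2 markers 9 were above 0 and 1 below (exact permutation p = 0.484). The part of these lists in any value below was not tested. In such bulk samples, fewer cells of a type and less RNA per cell cannot be told apart.

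**Figure D1:**
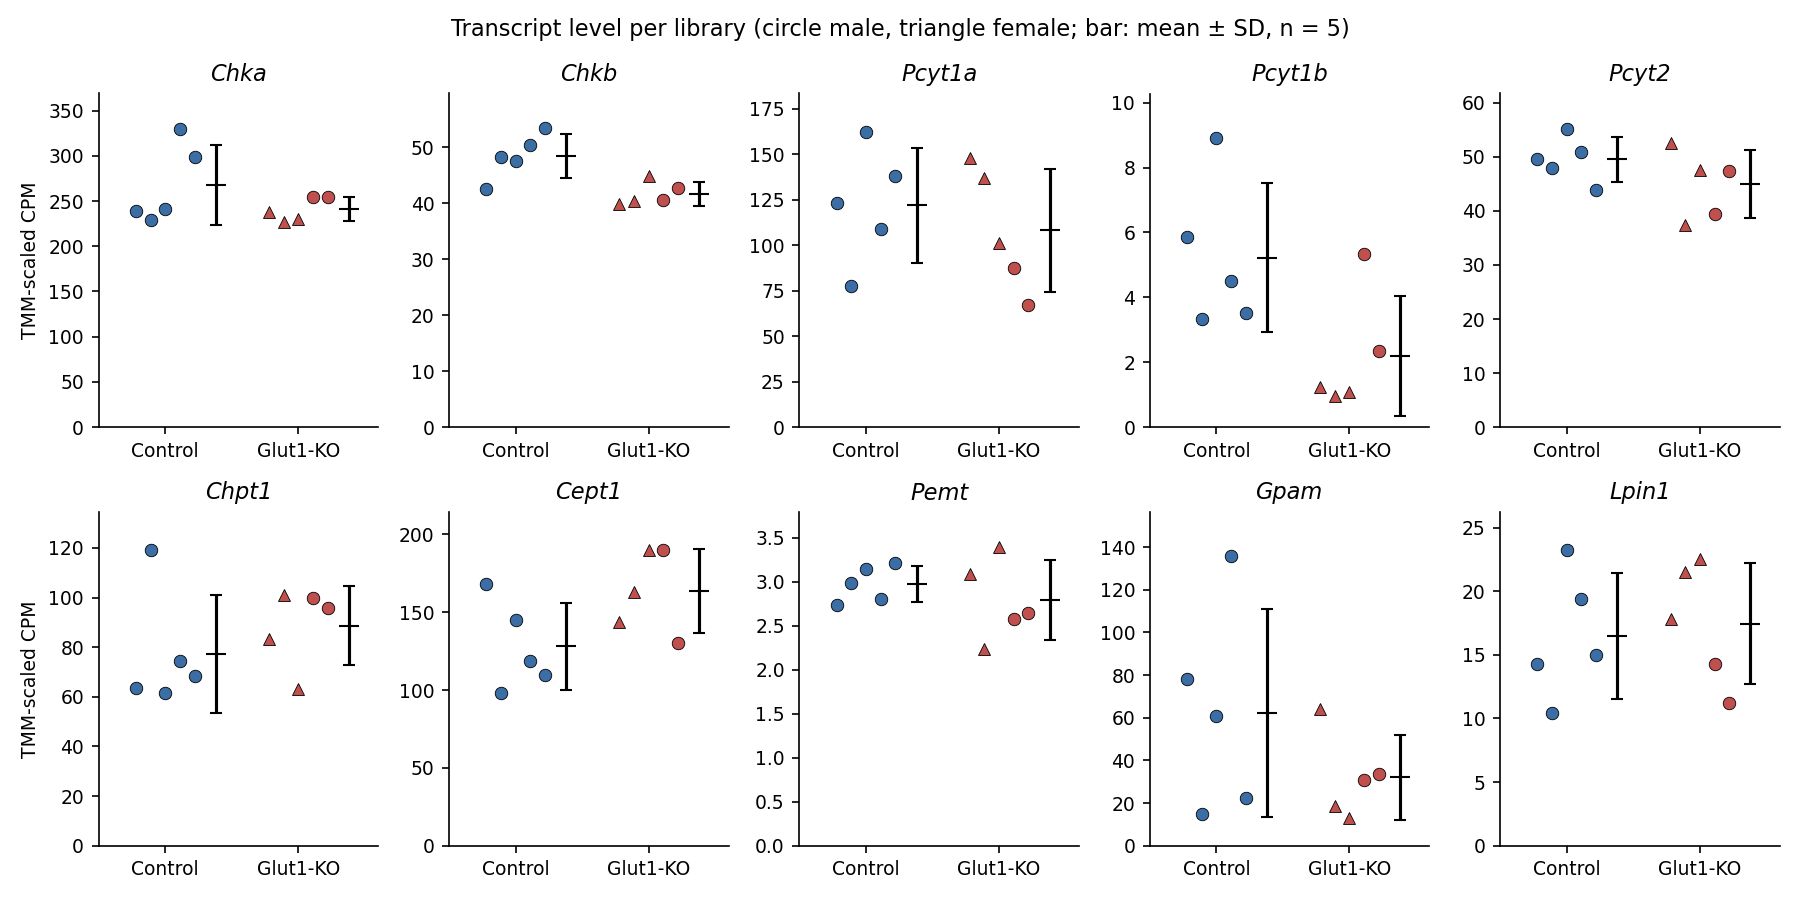
TMM-scaled CPM (vertical axis, starting at 0) of each of the 10 enzymes in the 5 Control and 5 Glut1-KO libraries; circles are libraries labelled male, triangles female, and the bar gives the mean ± SD. The groups overlap in every panel, and the 3 female libraries of Pcyt1b (0.951 to 1.24 CPM) lie under all controls.

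Choline kinases make phosphocholine, the first committed product of the route. Chka, which also serves as a marker of choline use in many tumours, was at 239, 229, 241, 330 and 299 CPM in the controls and at 238, 227, 230, 255 and 254 CPM under the Glut1-KO label. The means were 267 ± 44.5 and 241 ± 13.3 CPM (SD, n = 5 each), and the controls spread further because replicates 4 and 5 were high. The difference, a log2 fold change of -0.14 (SE 0.12, 95% interval -0.41 to 0.13, limma adjusted p = 0.805), was smaller than the spread of the controls, at -0.19 for the female and -0.06 for the male libraries. Chkb was at 42.6, 48.2, 47.6, 50.4 and 53.5 CPM in the controls and at 39.8, 40.4, 44.9, 40.5 and 42.7 CPM in the others, so that 3 of 5 lay below every control and the groups overlapped between 42.6 and 44.9. Its means were 48.5 ± 3.99 and 41.6 ± 2.11 CPM (SD), a log2 fold change of -0.22 (SE 0.10, 95% interval -0.43 to 0.00). The limma p was 0.0477 unadjusted and 0.644 adjusted, and a 2-sided exact permutation test of this gene alone gave p = 0.0238 (smallest possible 0.00794). The value was the same for female (-0.21) and male (-0.22) libraries to within their SEs of 0.11 and 0.13, but with fewer libraries the exact permutation p was 0.0714 and 0.143. With both sexes kept, the exact p stayed between 0.00794 and 0.0397 when any single library was left out. Chkb shares 1552 exon bases on the same strand with the readthrough gene Gm44502, and 320 with C730034F03Rik on the other strand, and reads of such stretches may have been split between genes or dropped. Chka lies at chr19:3851773-3894369 (+) and Chkb at chr15:89426360-89429908 (-) of GRCm38.

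Pcyt1a and Pcyt1b encode the alpha and beta forms of CTP:phosphocholine cytidylyl transferase. Pcyt1a, the general form, lies at chr16:32430921-32475070 (+), and Pcyt1b, better known from brain and gonad, at chrX:93654863-93749951 (+). The 250 bases before the RefSeq starts (GRCm38.p6, 5′ to 3′ on the + strand, the first of 3 starts for Pcyt1a and both for Pcyt1b) are shown because these paralogues differed most in level and in fold change. Capitals mark matches on either strand to CCAAT, to the GC box GGGCGG or to the sterol element TCACNCCAC.
Pcyt1a, chr16:32430671-32430920: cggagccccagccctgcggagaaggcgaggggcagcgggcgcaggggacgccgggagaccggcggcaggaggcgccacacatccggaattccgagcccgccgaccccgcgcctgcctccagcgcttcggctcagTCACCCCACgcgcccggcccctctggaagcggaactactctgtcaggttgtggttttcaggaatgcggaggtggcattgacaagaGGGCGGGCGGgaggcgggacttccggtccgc
Pcyt1b, first start, chrX:93654613-93654862: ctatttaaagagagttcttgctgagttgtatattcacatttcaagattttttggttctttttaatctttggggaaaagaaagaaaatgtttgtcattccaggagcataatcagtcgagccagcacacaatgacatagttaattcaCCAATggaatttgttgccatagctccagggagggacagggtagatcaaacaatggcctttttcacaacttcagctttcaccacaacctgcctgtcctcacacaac
Pcyt1b, second start, chrX:93674862-93675111: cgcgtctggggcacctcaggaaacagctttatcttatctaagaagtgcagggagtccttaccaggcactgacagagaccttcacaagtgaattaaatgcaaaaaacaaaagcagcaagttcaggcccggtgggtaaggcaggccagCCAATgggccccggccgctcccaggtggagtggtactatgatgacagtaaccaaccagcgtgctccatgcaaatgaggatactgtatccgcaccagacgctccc
In the 300-base windows of the RefSeq table, which add 50 bases after the start, Pcyt1a had 69.7% G and C and 33 CpGs at its first start, and Pcyt1b 42% and 2 at its first start and 53.3% and 9 at its second. Pcyt1a held a pair of overlapping GC boxes at -31 and -27 and a sterol element at -116, counted back from the start, and Pcyt1b a CCAAT at -105 of the first start and at -104 of the second. Of 32851 mouse windows of that length, 35.7% held a GC box, 37.4% a CCAAT and 1.24% the sterol element on either strand. Among the 9 enzymes with a window, 7 held a CCAAT in at least 1 window, 6 a GC box and 1, Pcyt1a, the sterol element. The 9 enzymes had 16 windows between them, so these counts per enzyme cannot be set against the shares per window. The E-box CACGTG (7.15% of all windows) and a direct repeat of AGGTCA spaced as for PPAR receptors (0.0396%) were in 0 of the 9. These matches describe letters in a window and were not tested against the counts.

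Pcyt1a was at 123, 77.6, 162, 109 and 138 CPM in the controls and at 148, 137, 101, 87.5 and 67.2 CPM in those labelled Glut1-KO. The ranges overlapped over most of their length, with means of 122 ± 31.4 and 108 ± 33.9 CPM (SD) and a log2 fold change of -0.19 (SE 0.25, 95% interval -0.74 to 0.35, limma adjusted p = 0.877). The direction depended on the libraries, being 0.11 (SE 0.24) for the female ones against the controls and -0.63 (SE 0.28) for the male ones. Pcyt1a overlaps 567 exon bases of Slc51a and 107 of 2210020O09Rik on the other strand.

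Pcyt1b was the enzyme with the largest fitted change, on counts of 40 to 361 a library. It was at 5.85, 3.32, 8.92, 4.5 and 3.52 CPM in the controls and at 1.24, 0.951, 1.08, 5.34 and 2.36 CPM in those labelled Glut1-KO. Of the latter, 4 of 5 lay below every control, and replicate 4 lay among the controls. The means were 5.22 ± 2.29 and 2.19 ± 1.84 CPM (SD), a log2 fold change of -1.49 (SE 0.46, 95% interval -2.50 to -0.47). Unadjusted, the limma p was 0.00815, and over all genes it was 0.458 by limma and 0.283 by DESeq2, with an exact permutation p of 0.0397 for this gene alone. That exact p rose to between 0.0556 and 0.0714 when any of Control replicates 1, 3 or 4 or Glut1-KO replicates 1, 2, 3 or 5 was left out.

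The fitted Pcyt1b difference was larger for the female than for the male libraries, a gap that was not itself tested. Set against all controls, an alternative chosen after seeing the data, they had a log2 fold change of -2.13 (SE 0.42, limma adjusted p = 0.147, exact permutation p = 0.0179, the smallest that 3 against 5 can give) and did not overlap the controls. The 2 male libraries against the controls gave -0.48 (SE 0.51, exact permutation p = 0.476). A fit with sex as a covariate gave -0.48 (SE 0.45). Because all controls were male, its group term rests on the same 2 libraries and is no separate check. In the comparison of the female libraries 9 of 16430 genes passed the adjusted limma threshold (0.0548%), 13.8% had an unadjusted p below 0.05, and 9.58% did not overlap between the groups. Of the 10 enzymes 0 passed, 1 (Pcyt1b) had an unadjusted p below 0.05 and the same 1 did not overlap, which is close to those background shares. Some marker lists also split these libraries by the sex label, while the alveolar type 2, club, ciliated, endothelial and leukocyte lists did not. The lists below are named because they split, which 3 and 2 libraries can easily do by chance. The 8 fibroblast markers summed to 935, 1150 and 762 CPM in the female libraries, 2600 and 2280 CPM in the male ones and 981 to 3270 CPM in the controls. The 8 proliferation markers summed to 311, 333 and 297 CPM in the female, 191 and 217 CPM in the male and 215 to 497 CPM in the control libraries. The 6 alveolar type 1 markers summed to 1860 to 2350 CPM in the female, 1710 and 1180 CPM in the male and 1040 to 1950 CPM in the control libraries, beside the dissociation stress sums given above. Their part in the Pcyt1b values was not tested.

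Shares within pairs of paralogues were taken from CPM per kilobase of exon, with all annotated exons of a gene merged. Pcyt1b made up 6.16, 5.59, 7.1, 5.39 and 3.4% of the sum of Pcyt1a and Pcyt1b in the controls. The share was 1.15, 0.948 and 1.46% in the female libraries labelled Glut1-KO and 7.78 and 4.63% in the male ones, the former below and the latter within or above the control range. The group means were 5.53 ± 1.36 and 3.19 ± 2.97% (SD). Tests of these pairs were run on the log2 ratio of the paralogues, not on the share. For Pcyt1b against Pcyt1a that ratio did not differ beyond the spread (difference -1.29, exact permutation p = 0.111). Within the choline kinases, Chkb took 41.8 ± 2.96% in controls and 40.5 ± 1.92% in the others (log2 ratio, exact permutation p = 0.429). That share rests on exon lengths of 3.06 kb for Chkb and 12 kb for Chka, at 48.5 and 267 CPM in the controls. Chkb also shares 1552 exon bases with Gm44502, so some of its reads may be missing. Chpt1 took 19.0 ± 7.44 and 17.2 ± 3.93% of the sum of Chpt1 and Cept1 (log2 ratio, exact permutation p = 0.714). The exon lengths of this pair were 8.32 and 3.12 kb.

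**Figure D2:**
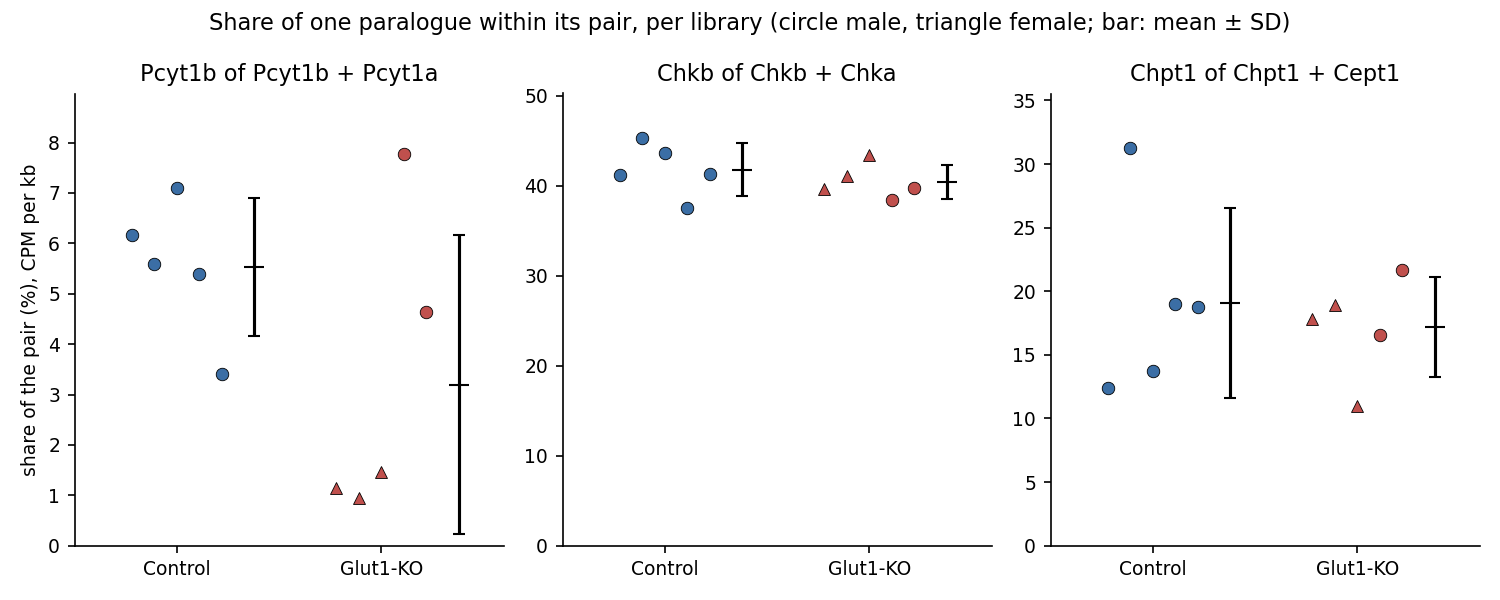
Share (%, vertical axis from 0) of Pcyt1b, Chkb and Chpt1 in the length-scaled sum with the named paralogue, per library; circles male, triangles female, bars mean ± SD over 5 libraries. In the Pcyt1b panel the 3 female libraries lie between 0.948 and 1.46%, while Chkb averages 41.8% in controls and 40.5% in the others.

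Pcyt2, which makes CDP-ethanolamine for the phosphatidylethanolamine branch, was at 49.5, 48.0, 55.2, 50.9 and 43.9 CPM in the controls and at 52.6, 37.4, 47.5, 39.5 and 47.4 CPM in those labelled Glut1-KO. Glut1-KO replicates 2 and 4 lay below all controls and the others among them. The log2 fold change was -0.14 (SE 0.12, 95% interval -0.41 to 0.12, limma adjusted p = 0.793), at -0.11 for the female and -0.18 for the male libraries. Pemt, which turns phosphatidylethanolamine into phosphatidylcholine, was low, at 2.73 to 3.21 CPM (median 2.99) in the controls and 2.23 to 3.39 CPM (median 2.65) in the others. Its log2 fold change was -0.10 (SE 0.19, limma adjusted p = 0.916; -0.04 female, -0.18 male), and the control values spread by only 0.206 CPM (SD).

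The last step belongs to Chpt1, a cholinephosphotransferase, and to Cept1, which accepts CDP-choline and CDP-ethanolamine. Chpt1 was at 63.5, 119, 61.7, 74.3 and 68.3 CPM in the controls and at 83.4, 101, 63.0, 100 and 95.8 CPM in those labelled Glut1-KO. Control replicate 2 was the highest of all 10 libraries, and the other 4 controls lay between 61.7 and 74.3. The log2 fold change was 0.22 (SE 0.20, 95% interval -0.22 to 0.66, limma adjusted p = 0.818, exact permutation p = 0.31), and without that library it was 0.39 (exact permutation p = 0.0556). The female libraries gave 0.11 and the male ones 0.38. Cept1 was at 168, 98.3, 145, 119 and 110 CPM in the controls and at 144, 163, 190, 190 and 130 CPM in the others, with 2 of 5 above every control. Its means of 128 ± 27.9 and 163 ± 27.0 CPM (SD) gave a log2 fold change of 0.36 (SE 0.17, 95% interval -0.01 to 0.73, limma adjusted p = 0.661, exact permutation p = 0.0794). This value was 0.40 for the female and 0.32 for the male libraries, and leaving out single libraries moved it between 0.28 (without Control replicate 2, the lowest control, exact permutation p = 0.175) and 0.47 (without Control replicate 1, the highest control, exact permutation p = 0.0397). Exons of Chpt1 overlap 660 bases of Sycp3, and those of Cept1 771 bases of Dennd2d, on the other strand.

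Gpam and Lpin1 shape the glycerol backbone that receives the head group. Gpam had the widest range over all 10 libraries, at 77.9, 14.7, 60.6, 136 and 22.4 CPM in the controls and at 64.3, 18.4, 13.0, 30.7 and 33.5 CPM in those labelled Glut1-KO. The highest library was 10.5 times the lowest, and both groups had low and high libraries. With means of 62.3 ± 48.8 and 32.0 ± 20.0 CPM (SD), the log2 fold change of -0.73 (SE 0.63, limma adjusted p = 0.80) had a 95% interval from -2.12 to 0.66, the widest of the 10 enzymes. It was -0.87 for the female and -0.49 for the male libraries, and ranged from -1.17 without Control replicate 2 to -0.34 without Control replicate 4. Control replicate 2 was the lowest control for Gpam, Pcyt1a (77.6 CPM), Pcyt1b (3.32 CPM), Cept1 (98.3 CPM), Chka (229 CPM) and Lpin1 (10.4 CPM). The same library had the lowest sums among the controls for the alveolar type 2 (27100 CPM), club (1990 CPM), leukocyte (986 CPM), ciliated (11.3 CPM), endothelial (104 CPM) and dissociation stress (5720 CPM) lists. Its proliferation markers, at 497 CPM, were the highest of all 10 libraries (191 to 333 CPM in the others), and the part of these lists in its enzyme levels was not tested. Lpin1 was at 14.3, 10.4, 23.2, 19.4 and 15.0 CPM in the controls and at 17.8, 21.5, 22.5, 14.3 and 11.2 CPM in the others. The ranges were almost the same, and the log2 fold change of 0.12 (SE 0.26, 95% interval -0.45 to 0.69, limma adjusted p = 0.929) was 0.40 for the female and -0.33 for the male libraries and -0.05 without Control replicate 2.

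**Figure D3:**
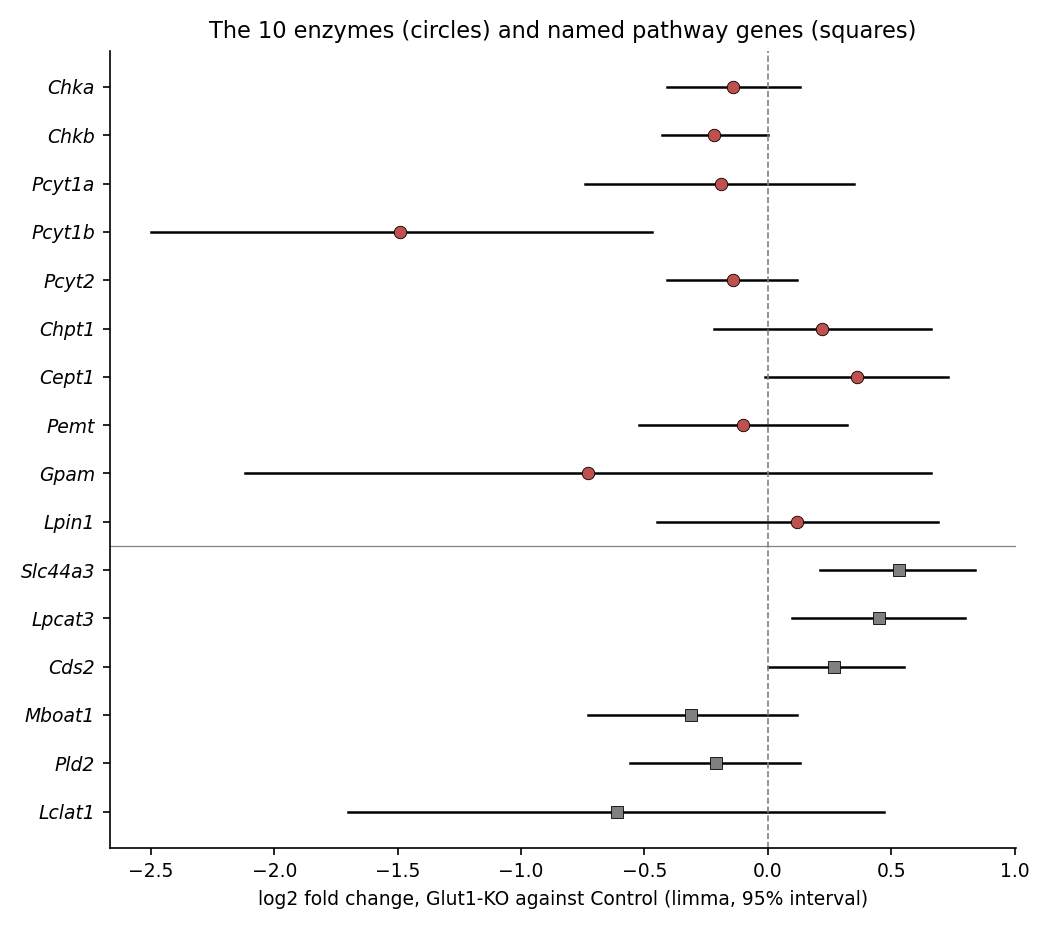
Fitted log2 fold change (points, horizontal axis) with 95% interval (lines) of libraries labelled Glut1-KO against Control for the 10 enzymes (circles) and 6 other genes of glycerophospholipid synthesis named by rule (squares). Of the 10 enzymes, Pcyt1b (-2.50 to -0.47) and Chkb (-0.43 to just below 0, which rounds to 0.00) have intervals below 0 before any adjustment for the number of genes.

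Levels of different genes were compared as CPM per kilobase of exon, with all annotated exons of a gene merged, whichever transcript was expressed. The order depends on these lengths. Chka had 12 kb and Cept1 3.12 kb, at 267 and 128 CPM in the controls. Cept1 was the highest in the controls at 41.1 ± 8.97 (SD), followed by Chka at 22.2 ± 3.70, Pcyt1a at 16.5 ± 4.24, Chkb at 15.8 ± 1.30, Pcyt2 at 11.4 ± 0.947, Gpam at 9.35 ± 7.33 and Chpt1 at 9.31 ± 2.88. Lpin1 at 1.70 ± 0.511, Pemt at 1.41 ± 0.0979 and Pcyt1b at 0.975 ± 0.428 formed a low end, and Lpin1 lay below Chpt1 in 5 of 5 controls and 5 of 5 libraries labelled Glut1-KO. Cept1 exceeded Chka, and Chkb exceeded Pcyt2, in 5 of 5 libraries of each group. Pcyt1a exceeded Chkb in only 3 controls and 2 of the others, and Gpam exceeded Chpt1 in 3 and 0, so those neighbours did not differ beyond their spread in the controls. Chka over Pcyt1a, and Lpin1 over Pemt, held in 4 libraries of each group, Pcyt2 over Gpam in 3 controls and 5 of the others, and Pemt over Pcyt1b in 4 and 5. In the libraries labelled Glut1-KO the levels ran from 52.4 ± 8.66 for Cept1 to 0.409 ± 0.344 for Pcyt1b. Lpcat1, the lysophosphatidylcholine acyltransferase that makes the saturated phosphatidylcholine of surfactant, was far above all 10 at 214 CPM per kilobase in the controls.

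**Figure D4:**
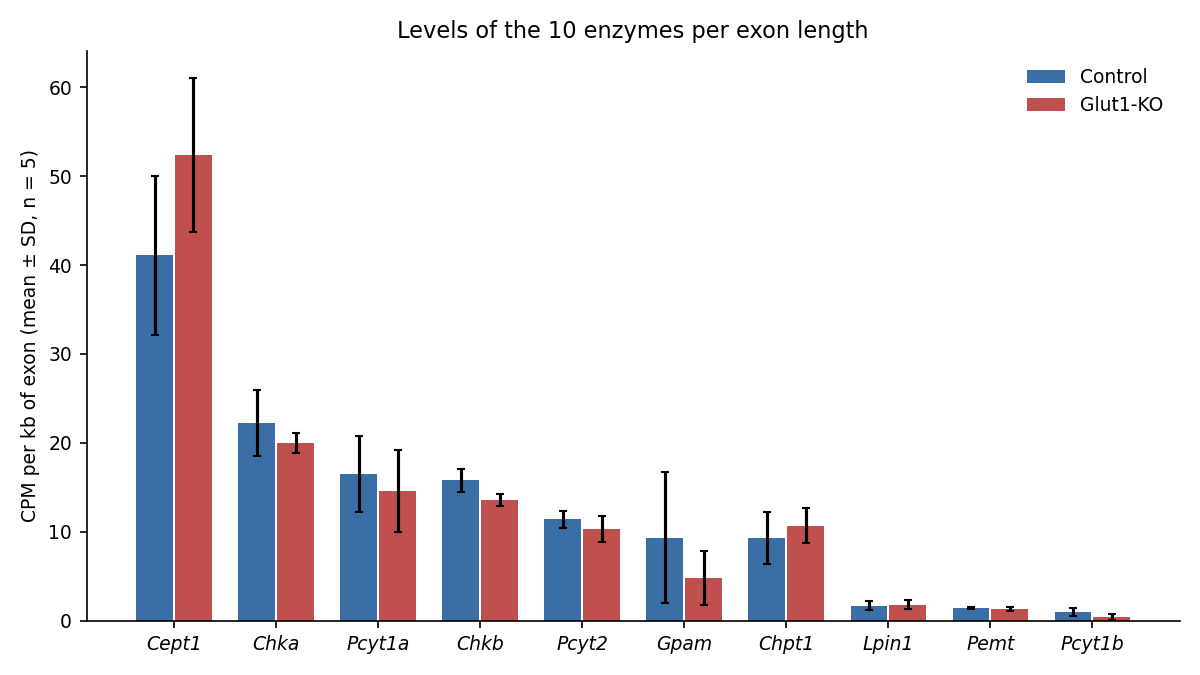
Mean level in CPM per kilobase of exon (bars from 0; error bars SD, n = 5) of the 10 enzymes in Control and Glut1-KO libraries, ordered by the control level. Cept1 is highest (41.1 in controls) and Lpin1, Pemt and Pcyt1b lie at 1.70 or less.

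The levels of the enzymes were also compared in pairs across the 10 libraries. Of the 45 pairs, 0 had an adjusted permutation p below 0.05 for Pearson's r of log2 CPM (3 unadjusted), and r ran from -0.68 (Chkb with Cept1) to 0.71 (Pcyt1a with Lpin1). For the latter pair r had a permutation p of 0.0245 (adjusted 0.56) and Spearman's rho was 0.67 (permutation p = 0.0396, adjusted 0.592). Without the 2 libraries farthest from the median of Pcyt1a, which narrows its range, r was 0.31, and within groups it was 0.77. For Chkb with Cept1, rho was -0.58 (permutation p = 0.0893, adjusted 0.592) beside the permutation p of 0.0351 for r (adjusted 0.56), and r was -0.51 without the 2 libraries farthest from the median of Chkb and -0.43 within groups.

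The rest of the pathway was followed through 56 further genes of glycerophospholipid synthesis, transfer and breakdown, of which 53 were tested. Of these, 32 had fitted values above 0 and 21 below, with a median of 0.10 (range -0.61 to 0.76), while 49.3% of all genes lay above 0. By limma 0 passed the adjusted threshold, 2 had an unadjusted p below 0.05, both higher, and DESeq2 called 1, Slc44a3. In choline and ethanolamine entry, 8 of the 10 listed genes passed the filter on low counts, and 8 of these 8 were above 0 (0.03 to 0.67, median 0.22). In phosphatidylethanolamine and phosphatidylserine synthesis 4 of 4 were below it (-0.07 to -0.03), and 0 passed the threshold by limma in both. Phosphatidate phosphatases had 4 of 5 above 0, the acylation of glycerol 3-phosphate 5 of 10, the CDP-diacylglycerol branch 3 of 7, acyl chain remodelling 6 of 9, and transfer and breakdown 6 of 10.

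Slc44a3, of the choline transporter-like family, was at 90.2, 75.4, 94.3, 103 and 106 CPM in the controls and at 130, 124, 181, 123 and 120 CPM in those labelled Glut1-KO. The groups did not overlap, as at 1.85% of all genes, and 1 of the 53 pathway genes did so. Its log2 fold change was 0.53 (SE 0.14, 95% interval 0.21 to 0.84, limma adjusted p = 0.418, DESeq2 adjusted p = 0.0478, exact permutation p = 0.00794, the smallest possible). It was 0.63 for the female and 0.38 for the male libraries, higher than every control in 3 of 3 and 2 of 2. With fewer libraries the exact permutation p was 0.0179 for the female ones, the smallest possible, and 0.0952 for the male ones. Lpcat3, which puts polyunsaturated chains on lysophosphatidylcholine, was at 105 to 178 CPM in the controls and 134 to 201 CPM in the others, with 3 of 5 above every control. Its log2 fold change was 0.45 (SE 0.16, limma adjusted p = 0.554, exact permutation p = 0.0317). The Lpcat3 value was 0.35 for the female libraries (exact permutation p = 0.161) and 0.59 for the male ones (exact permutation p = 0.0476, the smallest possible). Cds2, which makes CDP-diacylglycerol, was the next by p at 0.27 (SE 0.12, limma adjusted p = 0.654). These 3 genes were named for the smallest limma p among the pathway genes above 0. The exact permutation p-values of Slc44a3 and Lpcat3 are therefore those of genes picked on these same libraries.

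Among the genes below 0, the acyltransferase Mboat1 had the smallest p, at 141 ± 23.2 and 117 ± 33.6 CPM (SD) and a log2 fold change of -0.31 (SE 0.19, limma adjusted p = 0.745). Pld2, which cleaves phosphatidylcholine to phosphatidic acid, had -0.21 (SE 0.16) and the acyltransferase Lclat1 -0.61 (SE 0.49), with adjusted limma p of 0.771 and 0.787. The Lclat1 value was -1.29 for the male and -0.17 for the female libraries, and ran from -1.0 to -0.29 when single libraries were left out. Of 7 tested paralogues of the enzymes, 0 passed by limma. Lpin2 was at 220 ± 40.8 and 255 ± 61.1 CPM (SD; log2 fold change 0.19), Lpin3 had 0.01, Gpat3 0.17, Gpat4 -0.08, the ethanolamine phosphotransferase Selenoi -0.03, and the ethanolamine kinases Etnk1 0.16 and Etnk2 0.67 (SE 0.56). Leaving out single libraries moved Etnk2 between 0.34 and 1.0 and Gpat3 between 0.01 and 0.33. Etnk2 was at 1.0 for the female and 0.17 for the male libraries, and Gpat3 at -0.21 and 0.79. Lpcat1 was at 991 ± 257 and 1060 ± 281 CPM (SD; log2 fold change 0.10, SE 0.23, limma adjusted p = 0.936). With sex as a covariate the values of Mboat1, Lpin2, Lpin3, Gpat4, Selenoi and Lpcat1 turned sign.

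**Figure D5:**
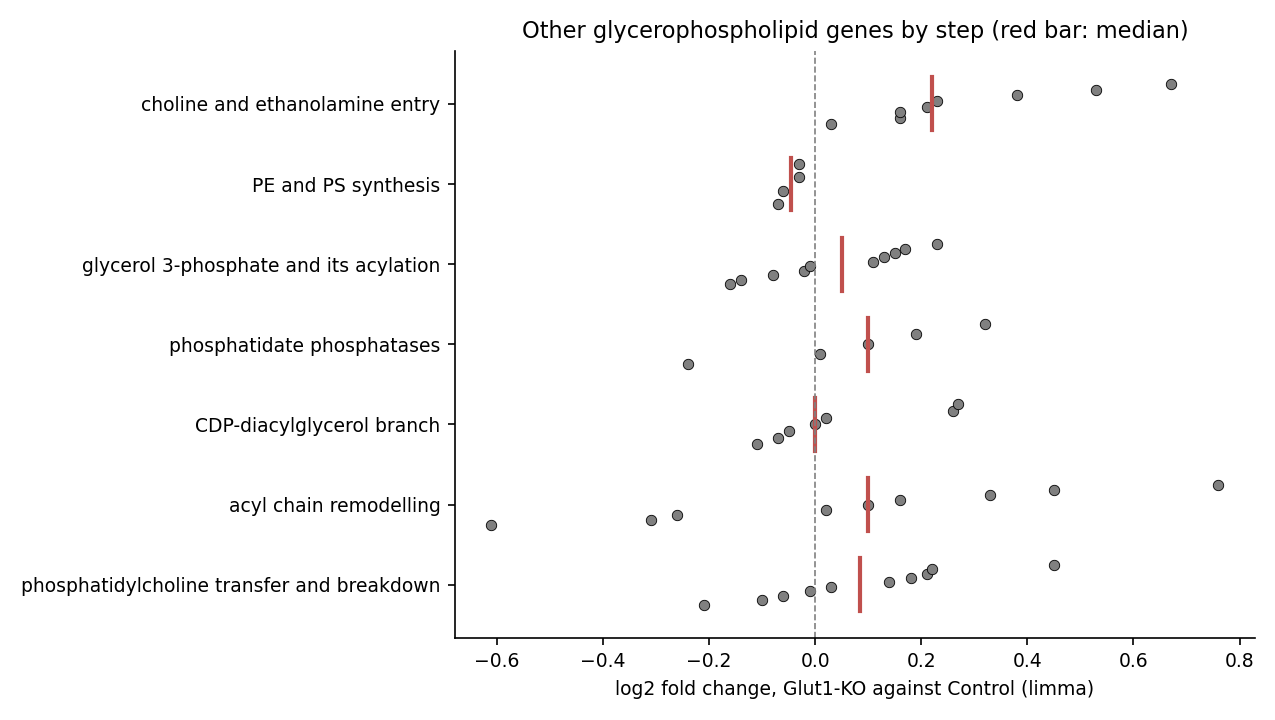
Fitted log2 fold change (horizontal axis) of the 53 tested pathway genes, a point each, by step (rows); red bars are medians. The 8 tested genes of choline and ethanolamine entry, of 10 listed, lie above 0 (0.03 to 0.67, median 0.22). The 4 genes of phosphatidylethanolamine and phosphatidylserine synthesis lie between -0.07 and -0.03.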

How the data were processed

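RNA of the CD45-negative fraction of lung tumours was made into stranded mRNA libraries. Per the submitters' processing notes and the study's methods, the authors aligned single-end reads with HISAT2 to mm10 and counted them per gene with featureCounts 1.4.4, and deposited raw counts, which were used here; the authors' log2 table was not used. The 10 single-library files equalled the combined table. The strand setting of the counting is not given in the sources used here.

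Genes were filtered with filterByExpr (minimum count 10, minimum total 15), scaled by TMM and fitted with limma-voom (limma 3.58.1, edgeR 4.0.16, R 4.3.3) on group alone. TMM, voom and limma follow the study's methods, whose own filter, a mean TPM of at least 20, was run as an alternative; p-values were adjusted by Benjamini-Hochberg over all 15922 genes, with a threshold of 0.05. CPM used a prior count of 0.5 on the log2 scale. Exact permutation tests ran over all 252 assignments (21 for male libraries, smallest p 0.0476; 56 for female against controls); correlations used 100000 permutations. Alternatives were edgeR's quasi-likelihood test, DESeq2 1.42.0, other scalings and filters, sample weights, sex, blocks and left-out libraries. The fit was tested on simulated data, and no result of that test is given here.

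Exon lengths and positions came from GENCODE M21 (GRCm38, the same assembly as mm10; 37693 genes, 96.6%, matched by identifier), windows from RefSeq (GRCm38.p6; 9 of 10 enzymes). The enzymes and gene lists were chosen with earlier results of these data known; aliases for Flvcr1, Flvcr2 and Cfap126 were added later. Genes named besides the enzymes were Slc2a1, the 3 pathway genes of smallest limma p in each direction, 7 paralogues and Lpcat1. Any other gene is named for overlapping an enzyme or, for markers, for a count of 0 or (Lyz2) for expression in another listed cell type. An allele that both groups share is not reported here.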

Additional observations from a re-analysis of the deposited data

Results flagged for a closer look

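Single libraries stood apart from the other 4 of their group, by more than Dixon's 95% limit of 0.71 for the gap over the range, in 4 of the 50 groups of values looked at, where chance gives about 1 in 20. Chpt1 was at 119 CPM in Control replicate 2, against 61.7 to 74.3 CPM in the other controls. Glut1-KO replicate 3 was high for Slc44a3, at 181 CPM against 120 to 130 CPM, and for Cds2, at 175 CPM against 125 to 128 CPM. Without that library the log2 fold change was 0.42 for Slc44a3 and 0.18 for Cds2. Gpat4 was at 197 CPM in Glut1-KO replicate 5 and at 94.9 to 114 CPM in the others of its group.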

How the results depend on the processing

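Under every alternative run, 0 of the 10 enzymes passed the adjusted threshold. Over all genes, calls numbered 215 by DESeq2 (384 genes had no adjusted p), 3 with sex as a covariate, 1 among male libraries, 9 for female libraries against controls (chosen after seeing the data) and 0 to 1 when a single library was left out (1 without Control replicate 3); the cause was not tested. DESeq2 called 1 pathway gene, Slc44a3 (0.54, adjusted p = 0.0478). With sex as a covariate and among male libraries alone, values turned sign for Lpin1 (-0.32 and -0.33), Mboat1 (0.09 in both), Lpin2 (-0.08), Lpin3 (-0.10), Gpat4 (0.22), Selenoi (0.31), Lpcat1 (-0.21) and Slc2a1 (0.06); with library totals Lpin3 was 0.00. For female libraries against controls, Pcyt1a was 0.11 (0.10 as a difference of mean log2 CPM) and Gpat3 -0.21. In the exact tests, Chkb lost its p below 0.05 among male (-0.22, p = 0.143) and female libraries (-0.22, p = 0.0714), and Pcyt1b among male ones (-0.46, p = 0.476). The same library numbers in both groups did not pair the samples (correlations of deviations -0.132 to 0.197), and with the replicate block Pcyt1b was -1.41 (adjusted p = 0.584), Chkb -0.22, Cept1 0.36 and Gpam -0.83, with 0 genes called. Leaving out single libraries gave ranges of -1.86 to -1.27 for Pcyt1b (-1.88 to -1.26 as a difference of mean log2 CPM), -0.26 to -0.18 for Chkb, 0.28 to 0.47 for Cept1 (0.27 to 0.47), -0.19 to -0.06 for Chka, -0.34 to -0.02 for Pcyt1a (-0.34 to -0.03), -0.20 to -0.08 for Pcyt2 (-0.21 to -0.09), 0.15 to 0.39 for Chpt1, -0.18 to -0.02 for Pemt (-0.18 to -0.03), -1.17 to -0.34 for Gpam (-1.16 to -0.36) and -0.05 to 0.29 for Lpin1 (-0.06 to 0.24). Signs also turned for Gpat4 (-0.24 to 0.05), Lpin3 (-0.03 to 0.06), Selenoi (-0.14 to 0.12) and Lpcat1 (-0.05 to 0.19). Pcyt1b, at 40 to 361 counts, and Pemt and Lpin1 fell under a mean of 20 TPM and had no value there.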
